A study of Mus musculus with 8 samples.

Results

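Chromatin accessibility around 9 genes of the ETS family of transcription factors was compared between wild-type and Opa1-deleted dendritic cells. The genes were Spi1, which encodes PU.1, and Spib, Etv6, Etv3, Ets1, Ets2, Fli1, Elf1 and Elk3. Their members in the data were all accessible regions that overlapped the gene or lay within 30 kb of it, which gave 150 of the 59906 regions measured. The genes were chosen with earlier results of these data known, and given the genes, the choice of regions used their position only. The study profiled conventional type 1 dendritic cells (cDC1), the dendritic cells specialised in presenting engulfed antigen to CD8 T cells, after sorting from mouse spleen. The assay was ATAC-seq, in which a transposase cuts and tags open chromatin, so that more sequenced fragments come from accessible DNA. The 4 WT libraries came from wild-type mice. The 4 OPA1KO libraries came from mice with a floxed OPA1 gene and CD11c-Cre, a Cre recombinase under control of CD11c regulatory sequence, which is active in CD11c-expressing cells in general and not in cDC1 alone. OPA1 is a dynamin-like GTPase of the mitochondrial inner membrane that is needed for membrane fusion and cristae shape. The labels do not give the age or sex of the mice, whether animals were pooled, or whether the WT mice carried Cre or a floxed allele.

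ETS factors share a winged-helix DNA-binding domain that recognises a GGAA core, and the bases beside that core differ between subfamilies. PU.1 is a pioneer factor of myeloid and dendritic cell development, and its dose helps to set myeloid against lymphoid fate. Spi-B, its closest relative, acts in plasmacytoid dendritic cells and B cells. ETS1, ETS2 and FLI1 are activators of lymphoid, myeloid, endothelial and megakaryocytic genes, and ELF1 is an activator in blood cells. ETV6, ETV3 and ELK3 can act as repressors. Accessibility at these genes is not their expression, which was not measured in these libraries.

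The libraries held 4660826 to 7590578 counts over all regions, and 54.3 to 56.2% of each library's counts lay in regions within 1 kb of a gene start. For genes without a listed start, here and for the markers below, either end of the gene stood in for it. Of the 10 cDC1 marker genes, all had a region within 30 kb and 6 had one within 1 kb of the start, with summed levels of 195 to 215 CPM (counts scaled to library size) in WT and 193 to 219 CPM in OPA1KO. The markers Xcr1, Clec9a, Itgae and Zbtb46 had no region at the start. Markers of other cells had start regions in part. For B cells it was 4 of 7 markers (Cd79a, Ms4a1, Ebf1 and Blnk, but neither Cd79b nor Pax5), with sums of 26.2 to 32.5 CPM in WT and 23.2 to 35.7 CPM in the OPA1KO libraries. For T cells it was 2 of 7 (Cd2 and Tcf7, with none at Cd3e, Cd3d, Cd3g, Bcl11b or Thy1), and for NK cells 1 of 5. For neutrophils it was 3 of 6 (S100a8, S100a9 and Cxcr2, with none at Ly6g, Mpo or Elane), with sums of 37.7 to 77.4 CPM among WT and 43.5 to 74.3 CPM among OPA1KO libraries. Dendritic cells of other kinds were represented by 5 of 6 cDC2 markers (76.5 to 91.9 CPM in WT, 68.8 to 78.6 CPM in OPA1KO) and 2 of 6 plasmacytoid markers (55.5 to 60.1 and 48.7 to 60.6 CPM). Of 5 red cell markers, 2 had a start region, at sums of up to 15.6 CPM in WT and 18.9 CPM in OPA1KO. The 9 monocyte and macrophage markers together were at 68.8 to 82.6 CPM in WT against 59.8 to 68.3 CPM in OPA1KO. Their sums did not overlap between the groups, whereas the sums of every other marker list did. The part of any of these cells in the results below was not tested. In sorted bulk cells, fewer cells of a type and less signal per cell cannot be told apart.

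No member region passed the test between the genotypes. With edgeR's quasi-likelihood test and Benjamini-Hochberg adjustment over 59247 regions, 0 of the 150 member regions had an adjusted p under 0.05, against a background of 0.0203% of all regions, which was 12 regions. That background count ran from 1 to 68 when single libraries were left out, with 68 called without WT replicate 2, 22 without OPA1KO replicate 4 and 1 without any of WT replicates 3 and 4 or OPA1KO replicates 1 and 3, and no member region was called in any of these fits. The smallest adjusted p of a member region was 0.533. At an unadjusted p under 0.05 there were 10 member regions, 6.67% of the 150, against 6.38% of all regions. Of these, 8 were higher in OPA1KO (5.33% of members, background 2.92%) and 2 were lower (1.33% of members, background 3.46%). The 4 OPA1KO libraries did not overlap the 4 WT libraries in 8 member regions, or 5.33%, against 3.95% of all regions. Log2 differences were above 0 in 82 of the 150 member regions, or 54.7%, against 49.3% of all regions. Their median was 0.03 in the member regions and -0.00 in all regions.

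Each gene also received a single value, the sum of the counts over its regions, called its window here. None of the 9 windows passed the test among 17224 gene windows (edgeR, background 0.0232%), and none had an unadjusted p under 0.05 (background 4.47%). In 7 of the 9 the log2 difference, OPA1KO minus WT, was above 0, against 51.2% of all windows, and the range was -0.10 for Fli1 to 0.09 for Elf1. Spib, Ets1, Ets2 and Elk3 each stood at 0.01, and these 4 and Spi1 changed sign when single libraries were left out. The 95% intervals of the 9 differences all lay between 0.856-fold and 1.18-fold, so a change of the summed signal beyond these bounds was outside every interval. The groups overlapped in all 9 windows, and the share over all windows was not computed.

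**Figure D1:**
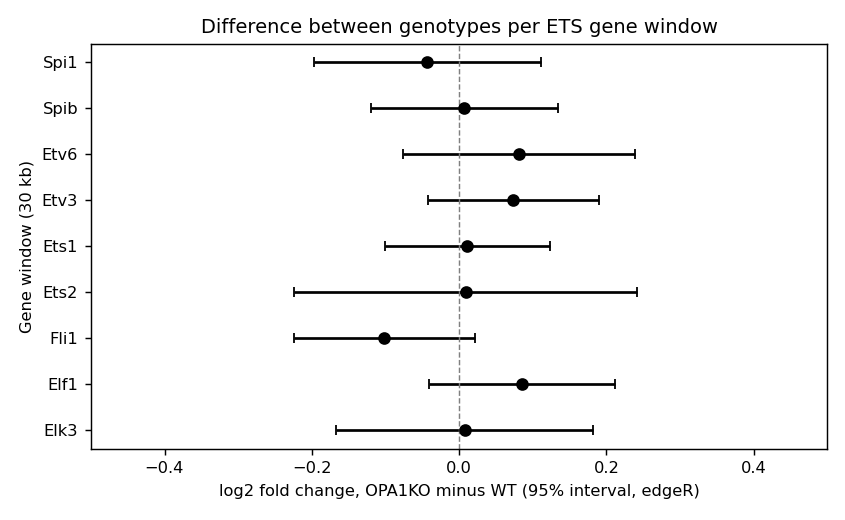
Log2 difference in summed accessibility, OPA1KO minus WT, for the 9 gene windows, with 95% intervals from edgeR. Every interval includes 0, and the values run from -0.10 for Fli1 to 0.09 for Elf1.

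To compare the genes, levels were taken per kb of region width and only over regions nearest to the gene in question. A region that overlapped another gene model as well counted for both. Spi1 was at 75.2 ± 13.1 CPM per kb in WT (SD, n = 4) and Ets2 at 71.2 ± 12.8 CPM per kb. Fli1 followed at 46.0 ± 3.62, Etv3 at 41.8 ± 3.77, Spib at 35.1 ± 6.61 and Etv6 at 33.3 ± 1.38 CPM per kb. Ets1 at 32.6 ± 0.985, Elf1 at 31.0 ± 2.06 and Elk3 at 25.9 ± 3.09 CPM per kb were lowest. Between neighbours in this order the library values overlapped, except for Ets2 and Fli1, which were apart in both groups, and Elf1 and Elk3, which were apart in OPA1KO only. Among the genes' own regions, the 6 that overlapped a gene start had a median of 62.2 CPM per kb (28.9 to 83.9). They belonged to Etv6, Etv3, Ets2, Elf1 and Elk3. The 112 that lay over 1 kb from a start had a median of 23.0 CPM per kb (9.71 to 134). For Spi1, Ets1 and Fli1, without a listed start, distance was taken from either gene end, so a start inside the gene would be missed. The value of 134 was at such a region, in Ets1. Spi1 regions within 1 kb of an end were in neither set.

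**Figure D2:**
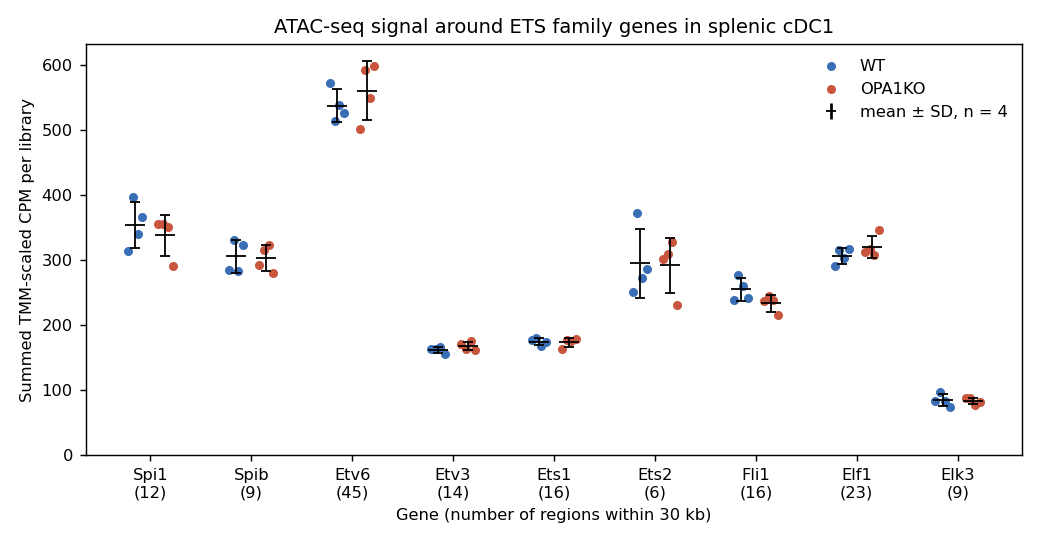
Summed TMM-scaled CPM of each gene window in the 8 libraries, with the group mean and SD. The WT and OPA1KO points overlap at every gene, and sums are not scaled for the number or width of regions, so heights are not compared between genes.

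Spi1, the gene of PU.1, spans chr2:91082374-91115759 on GRCm38, and its window held 12 regions. The window sum was 314, 398, 340.1 and 366.5 CPM in WT replicates 1 to 4 and 356, 356, 351 and 292 CPM in OPA1KO replicates 1 to 4. A single OPA1KO library, replicate 4, lay below all others, and the other 3 lay within the WT range. The means were 355 ± 35.8 and 339 ± 31.4 CPM (SD, n = 4 each), and the log2 difference was -0.04 ± 0.07 (SE, edgeR adjusted p = 1.00, 95% interval 0.872-fold to 1.08-fold). Of the 12 regions, 6 were higher and 6 lower in OPA1KO. The regions nearest to Spi1 rather than to a neighbour held 54.1% of the window's signal.

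Among the regions nearest to Spi1, the densest signal lay close to one end of the gene. A region at chr2:91082897-91083321, inside the gene and 0.523 kb from that end, held 111 CPM per kb. Its values were 37.7, 63.0, 49.6 and 49.7 CPM in WT against 48.8, 45.5, 46.7 and 35.6 CPM in OPA1KO. OPA1KO replicate 4 was below every WT library and the other 3 lay within the WT range, and the log2 difference was -0.18 ± 0.13 (edgeR adjusted p = 0.876). Just outside the same end, 0.929 kb away, the region at chr2:91080810-91081445 stood at 33.5, 48.4, 32.7 and 41.6 CPM in WT against 31.9, 30.5, 35.4 and 30.5 CPM in OPA1KO. Here 3 of the 4 OPA1KO libraries were below every WT library. This was the Spi1 region with the lowest value of the log2 difference, -0.28 ± 0.13, with an unadjusted p of 0.0362 and an adjusted p of 0.750 (edgeR). Within the gene, the region at chr2:91096498-91096950 was at 40.6 ± 6.30 CPM in WT against 38.5 ± 4.63 CPM in OPA1KO (log2 difference -0.08 ± 0.13). An upstream enhancer that binds PU.1 itself is known at this locus; which region holds it was not determined here, since the gene tables used give no start or strand for Spi1.

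Further out, the region with the most signal in the Spi1 window was chr2:91070106-91070843, which is nearest to Slc39a13, a zinc transporter gene, and 11.5 kb from Spi1. It was at 109.7 ± 6.13 CPM in WT against 104 ± 13.9 CPM in OPA1KO (log2 difference -0.07 ± 0.09). At chr2:91053812-91054383, nearest to Psmc3, a proteasome subunit gene, the means were 39.4 ± 5.04 and 43.0 ± 2.98 CPM (log2 difference 0.12 ± 0.12). Inside Spi1, chr2:91086339-91086687 stood at 30.3 ± 5.75 CPM in WT against 29.5 ± 3.77 CPM in OPA1KO. The other 3 regions inside the gene had means between 8.21 and 16.7 CPM, and the 3 beyond its far end, nearest to Mybpc3 or Madd, between 1.83 and 6.60 CPM.

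**Figure D3:**
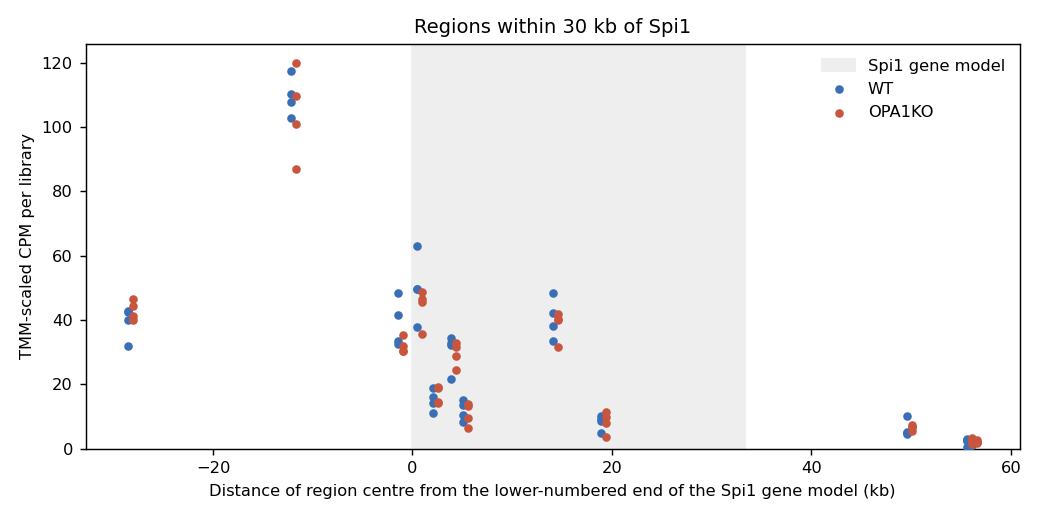
TMM-scaled CPM of the regions of the Spi1 window, each library as a point, ordered along chromosome 2. The groups overlap at every region, and the region 0.929 kb outside the gene has 3 of 4 OPA1KO points below all WT points.

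Spib encodes Spi-B and lies at chr7:44525995-44532087 on the minus strand. Of the 9 regions in its window only 2 were nearest to Spib, and they held 7.61% of the window's signal. At the stronger one, chr7:44527936-44528333, WT stood at 17.1 ± 3.45 CPM and OPA1KO at 17.0 ± 1.54 CPM. The other, chr7:44527589-44527833, was at 5.63, 6.39, 3.80 and 5.74 CPM in WT against 7.12, 6.71, 7.51 and 6.40 CPM in OPA1KO. All 4 OPA1KO values were above the WT values there, by little in the closest pair, and the log2 difference was 0.35 ± 0.24. No region lay within 1 kb of the Spib start, and the nearest was 2.14 kb away within Pold1, the catalytic subunit gene of DNA polymerase delta. The window sums were 306 ± 25.1 CPM in WT against 303 ± 19.97 CPM in OPA1KO (log2 difference 0.01 ± 0.06, edgeR adjusted p = 1.00). Most of that sum belongs to neighbours: the strongest region, chr7:44496061-44496888, is nearest to Emc10 and was at 109.6 ± 9.44 and 105.5 ± 8.65 CPM. The smallest p in the window was at chr7:44501736-44502025, nearest to Fam71e1, with 4.14 ± 1.93 and 5.87 ± 0.818 CPM (log2 difference 0.48 ± 0.29, edgeR unadjusted p = 0.104, adjusted p = 0.828).

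Promoter sequences, the 250 bases before the gene start, were available from RefSeq (GRCm38.p6) for 6 of the 9 genes, with 7 starts. A region overlapped 6 of these 7 stretches, and the exception was Spib. The letters GGAA, or TTCC on the other strand, occurred in 6 of the 7, as in 93.4% of 32851 mouse promoters in the same table, where the median is 3 matches. Spib (chr7:44532072-44532321, minus strand) is shown as the promoter without a region. Etv3 (chr3:87525328-87525577, plus strand) is shown for its 6 matches, the most among these genes. The starts of Elf1 (chr14:79480944-79481193 and chr14:79515424-79515673, plus strand) are shown as a pair from the same gene, with 2 matches and 0 matches and 71.6 and 43.2% GC. All are printed 5′ to 3′ on the gene's strand, with GGAA and TTCC in capitals.
Spib: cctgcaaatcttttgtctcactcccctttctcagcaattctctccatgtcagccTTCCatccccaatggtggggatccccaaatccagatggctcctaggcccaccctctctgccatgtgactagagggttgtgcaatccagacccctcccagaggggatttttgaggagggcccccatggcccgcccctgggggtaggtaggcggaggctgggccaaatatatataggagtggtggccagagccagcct
Etv3: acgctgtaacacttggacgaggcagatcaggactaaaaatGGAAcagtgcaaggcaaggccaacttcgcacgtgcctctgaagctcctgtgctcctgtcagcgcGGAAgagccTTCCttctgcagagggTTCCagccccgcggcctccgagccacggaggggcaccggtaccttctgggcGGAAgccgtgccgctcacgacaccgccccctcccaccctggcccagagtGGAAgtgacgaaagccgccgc
Elf1 first start: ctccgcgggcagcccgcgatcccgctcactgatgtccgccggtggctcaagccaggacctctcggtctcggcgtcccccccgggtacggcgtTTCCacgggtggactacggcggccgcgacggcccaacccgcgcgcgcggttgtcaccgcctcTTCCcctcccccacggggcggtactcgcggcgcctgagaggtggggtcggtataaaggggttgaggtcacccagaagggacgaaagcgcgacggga
Elf1 second start: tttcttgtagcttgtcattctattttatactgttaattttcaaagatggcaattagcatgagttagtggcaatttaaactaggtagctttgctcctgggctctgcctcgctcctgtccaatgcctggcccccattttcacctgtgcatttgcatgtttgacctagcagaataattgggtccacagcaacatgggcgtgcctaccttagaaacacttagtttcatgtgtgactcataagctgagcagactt
The remaining stretches held 3 matches at Etv6, 1 at Ets2 and 2 at Elk3. The longer letters GAGGAAGT, a PU.1-type site, and CCGGAAGT, a site of many other ETS factors, were searched on both strands and each contains the shorter core. Neither occurred in any of the 7 stretches, and in all promoters they occurred in 2.44% and 2.88%. A match describes letters only, and its absence from this window says nothing of binding.

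Ets2, a factor activated by Ras and MAP kinase signalling, lies at chr16:95702407-95721049 and had 6 regions. The sums were 251, 372, 273 and 286 CPM in WT against 302, 309.5, 327 and 231 CPM in OPA1KO. WT replicate 2 was the highest and OPA1KO replicate 4 the lowest of the 8 libraries, and this spread within each group exceeded the gap between means of 296 ± 53.1 and 293 ± 42.2 CPM. The log2 difference was 0.01 ± 0.11 (edgeR adjusted p = 1.00, 95% interval 0.856-fold to 1.18-fold). With WT replicate 2 and OPA1KO replicate 4 both left out, a setting chosen after seeing the data, the difference was 0.21 and passed the threshold, as 1046 of all windows then did. At the start, chr16:95701780-95703065, WT was at 89.6, 129.8, 101.8 and 109.1 CPM and OPA1KO at 101.7, 106.5, 110.0 and 76.5 CPM (log2 difference -0.12 ± 0.11). The same WT library was highest inside the gene at chr16:95708092-95709103, with 124.8 CPM beside 69.8, 77.1 and 82.7 CPM, and OPA1KO ranged from 61.7 to 96.1 CPM. The remaining strong region, chr16:95728645-95729340, lies 7.60 kb beyond the gene and was at 86.9 ± 10.9 and 91.2 ± 7.54 CPM. A weak region at chr16:95749225-95749658 was at 3.04, 5.46, 2.75 and 2.51 CPM in WT against 5.84, 5.99, 6.31 and 6.89 CPM in OPA1KO. The groups did not overlap there, at a log2 difference of 0.84 ± 0.28 (edgeR unadjusted p = 0.00542, adjusted p = 0.537).

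The neutrophil marker sum moved with the Ets2 values. It came from the 3 of 6 markers with a region at the start, S100a8, S100a9 and Cxcr2, and was 37.7, 77.4, 48.1 and 67.5 CPM in WT against 63.1, 59.7, 74.3 and 43.5 CPM in OPA1KO. Its highest and lowest libraries within each group were those of the Ets2 window, and at Spi1 WT replicates 2 and 1 and OPA1KO replicate 4 stood in the same places. Other marker sums shared some of these places and not others. For cDC2 markers WT replicate 2 was the highest WT library and OPA1KO replicate 4 the lowest OPA1KO library. The latter was also lowest in its group for cDC1 markers. For T cell markers WT replicate 2 was lowest and OPA1KO replicate 4 highest in their groups. The part of the neutrophil or any other marker signal in the Ets2 and Spi1 values was not tested. More widely, WT replicate 2 was the highest WT library in 6 of the 9 windows (Spi1, Spib, Ets1, Ets2, Fli1 and Elk3). OPA1KO replicate 4 was the lowest OPA1KO library in 5 (Spi1, Spib, Etv3, Ets2 and Fli1) and the highest in 3 (Etv6, Ets1 and Elf1).

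Ets1 and Fli1 sit side by side on chromosome 9, 92.8 kb apart, and shared no region. Fli1 (chr9:32422204-32543432), a factor of megakaryocytes and blood stem cells, had 16 regions, of which 13 lay inside the gene. Its sums were 239.5, 278, 261 and 242 CPM in WT against 237, 245, 239 and 215 CPM in OPA1KO. This was the window with the lowest log2 difference, -0.10 ± 0.06, with 13 of 16 regions lower in OPA1KO (edgeR unadjusted p = 0.0991, adjusted p = 1.00). Its strongest region, chr9:32508563-32509283, was at 47.0, 68.3, 47.7 and 48.5 CPM in WT against 53.3, 46.4, 51.9 and 42.8 CPM in OPA1KO. WT replicate 2 stood alone at the top there, and the remaining values interleaved (log2 difference -0.12 ± 0.12). The region nearest to an end of Fli1 was 2.99 kb away from it, at 29.9 ± 3.40 and 28.6 ± 6.27 CPM. The smallest p of the Fli1 regions was 0.0651 (edgeR, adjusted p = 0.806), at chr9:32405403-32405621 near the potassium channel gene Kcnj1. That region was at 3.58 ± 0.787 CPM in WT against 2.22 ± 0.508 CPM in OPA1KO, lower without overlap.

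Ets1 (chr9:32636241-32757820), a regulator of T, NK and B cells, also had 16 regions, with 13 inside the gene, and none within 9.30 kb of either end. Its sums were 178, 179.8, 168 and 175 CPM in WT against 163, 177, 176 and 179 CPM in OPA1KO, which overlapped throughout (log2 difference 0.01 ± 0.05). Of its regions, 6 were higher and 10 lower. Signal was concentrated in 1 region deep inside the gene, chr9:32695737-32696285, at 75.0 ± 2.37 CPM in WT against 71.7 ± 6.87 CPM in OPA1KO (log2 difference -0.07 ± 0.09). Under 10 CPM lay 13 of the 16 regions. Among them, chr9:32654395-32654619 was at 2.43 ± 0.456 CPM in WT against 4.19 ± 1.06 CPM in OPA1KO, without overlap (log2 difference 0.80 ± 0.33, edgeR unadjusted p = 0.0199, adjusted p = 0.694). T cell and NK cell marker sums, for cells that use ETS1, were 14.2 to 20.3 and 1.44 to 4.22 CPM in WT against 17.2 to 24.5 and 2.72 to 6.26 CPM in OPA1KO, and their part was not tested.

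Elf1 (chr14:79481174-79582491) had 23 regions, 20 of them inside the gene. The sums were 291, 316, 304 and 317 CPM in WT against 312, 317, 307.5 and 346 CPM in OPA1KO. The highest value, OPA1KO replicate 4, lay above all others, which overlapped. The log2 difference was 0.09 ± 0.06 with 17 regions higher and 6 lower (edgeR unadjusted p = 0.169, adjusted p = 1.00). At the first start, chr14:79480684-79482082, which overlaps Wbp4 as well, the means were 89.6 ± 6.81 and 92.9 ± 4.57 CPM. The second start, chr14:79515453-79515809, whose promoter holds no GGAA, was at 19.98 ± 2.63 and 20.5 ± 2.64 CPM. Of all Elf1 regions the smallest p was 0.0117, at chr14:79507905-79508191, with 2.94 ± 0.275 CPM in WT against 5.28 ± 2.18 CPM in OPA1KO (log2 difference 0.84 ± 0.31, edgeR adjusted p = 0.623).

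Among the repressors, Etv6 (chr6:134035700-134270158), needed by blood stem cells and involved in cDC1 differentiation, had 45 regions, more than any other of the 9 genes. Its sums were 572, 514, 538 and 527 CPM in WT against 502, 593, 549.5 and 599.5 CPM in OPA1KO, with the lowest and the 2 highest values all in OPA1KO. The log2 difference was 0.08 ± 0.07, with 28 regions higher and 17 lower (edgeR unadjusted p = 0.292, adjusted p = 1.00). The start region, chr6:134034884-134036149, which overlaps the gene model Gm46977 as well, was the strongest of the window. It had near-equal means of 74.7 ± 8.03 and 75.0 ± 1.73 CPM. Deep in the gene, chr6:134148006-134148331 stood at 4.09 ± 0.797 CPM in WT against 7.27 ± 2.14 CPM in OPA1KO. Its p of 0.00519 was the smallest of all 150 member regions (log2 difference 0.81 ± 0.27, edgeR adjusted p = 0.533).

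Etv3 (chr3:87525577-87540158), a repressor of proliferation genes in macrophages, had 14 regions, of which 8 were nearest to another gene. Its sums were 163, 163, 166 and 155 CPM in WT against 171, 163, 176 and 162 CPM in OPA1KO. The OPA1KO values ran higher in part but overlapped (log2 difference 0.07 ± 0.05, edgeR unadjusted p = 0.195, adjusted p = 1.00). The start, chr3:87525387-87525804, which holds part of the promoter printed above, was at 36.1 ± 3.38 CPM in WT against 33.9 ± 3.20 CPM in OPA1KO. Near Fcrl5 and 12.7 kb from Etv3, chr3:87512491-87512860 was at 11.9, 16.7, 14.4 and 15.3 CPM in WT against 19.9, 18.1, 19.9 and 18.4 CPM in OPA1KO, without overlap (log2 difference 0.39 ± 0.16, edgeR adjusted p = 0.701). Elk3 (chr10:93247415-93311159), a ternary complex factor that works with SRF, had 9 regions. They summed to 84.6 ± 9.17 CPM in WT against 83.8 ± 4.67 CPM in OPA1KO (log2 difference 0.01 ± 0.08). The Elk3 start, chr10:93310842-93311301, stood at 12.3 ± 1.78 and 14.2 ± 3.46 CPM. Its strongest region, chr10:93261052-93261603, was at 21.7 ± 2.36 and 18.9 ± 1.37 CPM. The smallest p was 24.6 kb outside the gene at chr10:93335801-93336538, with 7.75 ± 1.81 and 9.58 ± 1.94 CPM (log2 difference 0.30 ± 0.23, edgeR unadjusted p = 0.196, adjusted p = 0.880).

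Most member regions were weak, those with a small unadjusted p among them. Of the 10 member regions under 0.05, 7 had a mean below 10 CPM, as did 90 of the 150 member regions. The 12 member regions at or above 50 CPM had log2 differences from -0.12 to 0.07, whereas those below 10 CPM ran from -1.10 to 1.20. In 5 of the 8 regions whose groups did not overlap the OPA1KO libraries were higher, 3.33% of members against 1.84% of all regions. In the other 3 they were lower, 2.0% of members against 2.11% of all regions.

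**Figure D4:**
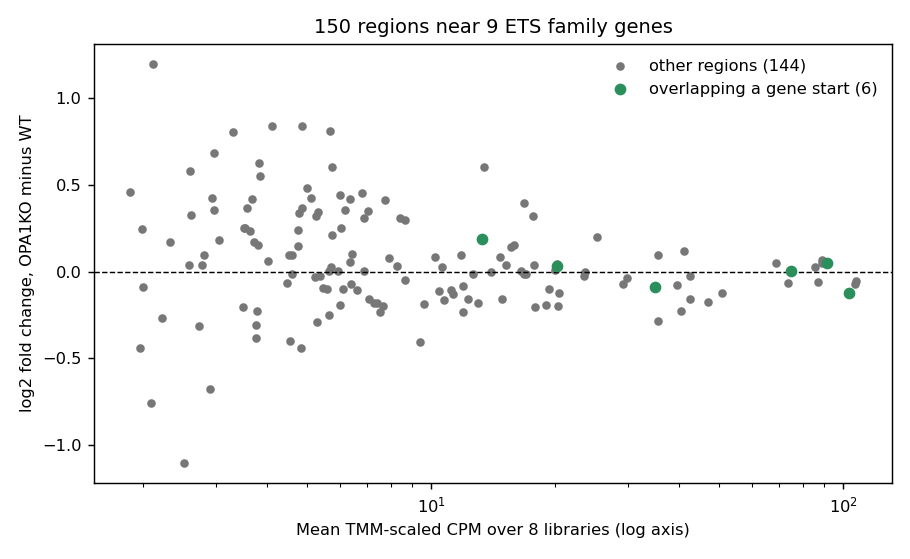
Log2 difference, OPA1KO minus WT, of the 150 member regions against mean CPM on a log axis. Regions that overlap a gene start are green and other regions are grey. The spread narrows with level, from -1.10 to 1.20 below 10 CPM to -0.12 to 0.07 at or above 50 CPM, and no region passed the adjusted threshold.

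The rest of the family was read from a list of 17 further ETS genes. All were tested and none passed, 8 were higher and 9 lower, and the median log2 difference was -0.00, as over all windows (0.00). At an unadjusted p under 0.05 there was 1 gene, 5.88% of the list against 4.47% of all windows. It was Etv1, at 99.1 ± 11.3 CPM in WT against 75.3 ± 8.59 CPM in OPA1KO (log2 difference -0.38 ± 0.11, edgeR unadjusted p = 0.00273, adjusted p = 0.933). Gabpa, a regulator of mitochondrial genes, was at 173 ± 6.23 and 159 ± 6.41 CPM. Its groups did not overlap, with OPA1KO lower, but the log2 difference was -0.10 ± 0.06 (edgeR adjusted p = 1.00). No other gene of the list was without overlap, and the share over all windows was not computed. Spic, the PU.1 relative of red pulp macrophages, was at 40.8 ± 2.25 and 36.6 ± 6.14 CPM, and it is itself one of the macrophage markers whose sum was lower in OPA1KO.

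Partners and antagonists of PU.1 gave no call among 12 genes, with 7 higher and 5 lower and a median of 0.02. Over all windows, the background for this list and the next, 0.0232% were called and 51.2% were above 0. Irf8, which binds composite sites with PU.1 and is required for cDC1, was at 109 ± 13.4 and 113 ± 9.34 CPM (log2 difference 0.07 ± 0.10). Batf3, the other factor on which cDC1 depend, was at 179.9 ± 7.12 and 182 ± 11.3 CPM (log2 difference 0.04 ± 0.06). Of 24 known PU.1 target genes, 22 were tested, 13 were higher, 9 were lower and the median was 0.03. This list was drawn up with earlier results of these data known. The 2 that passed, 9.09% of those tested against 0.0232% of all windows, were the integrin genes Itgax (CD11c, log2 difference 1.06 ± 0.09, edgeR adjusted p = 0.000188) and Itgam (CD11b, 0.76 ± 0.09, adjusted p = 0.00482). These are neighbours whose windows shared 8 regions, and CD11c regulatory sequence is also part of the Cre transgene that the OPA1KO mice carry, so that reads from a transgene copy and from the gene itself cannot be told apart. Without this pair the target list held no call. At an unadjusted p under 0.05 the whole list held 3 genes, 13.6% of those tested against 4.47% of all windows. These were the pair and Cd72, at 179 ± 4.05 and 191 ± 8.35 CPM (log2 difference 0.11 ± 0.05, edgeR unadjusted p = 0.048). Flt3, the cytokine receptor of dendritic cell growth, was at 215 ± 10.6 and 225 ± 5.89 CPM (log2 difference 0.09 ± 0.06). Ciita, the regulator of MHC class II genes, was at 188 ± 7.36 and 181 ± 6.16 CPM (log2 difference -0.04 ± 0.06).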

How the data were processed

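ATAC-seq was run on 8 libraries, 4 WT and 4 OPA1KO. The authors deposited a table of whole-number counts per region, per the file header, on mm10 (GRCm38). What 1 count stands for, and how regions were merged, is not given in the sources used here. Tools named, per the submitters' processing notes, are bedtools, MACS2 2.1.0.20150603, SAMtools, Picard 1.65 and cutadapt 1.9. All columns matched a labelled sample. The labels do not tie libraries to animals, so p-values reflect library-to-library spread alone, and that spread may be technical.

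Counts were tested with edgeR 4.0.16 (R 4.3.3, limma 3.58.1): filterByExpr, which removed 659 regions and 33 windows, TMM scaling and the robust quasi-likelihood test, with Benjamini-Hochberg adjustment over all regions or windows and a threshold of 0.05. The code was tested on simulated data, with changes placed in randomly chosen regions or windows. The region test recovered 17.2% of 1.5-fold, 43.8% of 2-fold and 79.2% of 3-fold changes, so changes at single regions can be missed. The window test recovered 88.9% of 1.5-fold changes. CPM values are TMM-scaled, and a window's CPM is the sum over its regions. Windows reach 30 kb from gene spans of RefSeq, and neighbouring windows share regions. Gene starts came from the RefSeq promoter table, which gave one for 17492 of 21887 gene models. For the rest, among them Spi1, Ets1 and Fli1, either end of the gene was used. The members and gene lists were chosen with earlier results of these data known. Regions named were all those of Spi1 and, for each other gene, those within 1 kb of the start, the strongest and that with the smallest p; other regions named for their level or for groups that did not overlap were chosen after their values were seen. Alternatives were DESeq2 1.42.0, other filters and windows, a replicate block and leaving out libraries. For replicates, total counts limit the precision: weak regions of a few CPM rest on few counts in each library.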

Additional observations from a re-analysis of the deposited data

Results flagged for a closer look

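In 4 of 78 groups of 4 libraries that were checked, 1 library stood apart from the other 3 by Dixon's 95% criterion, and chance gives about 1 in 20. The Spi1 window was at 291.6 CPM in OPA1KO replicate 4, below 351.3 to 355.9 CPM in the other OPA1KO libraries. The same library was lowest at the Spi1 region chr2:91096498-91096950, at 31.67 CPM beside 40.15 to 41.86 CPM. At chr2:91132099-91132415 near Mybpc3, WT replicate 3 was at 10.13 CPM, above the other WT libraries at 4.68 to 5.21 CPM. At the Fli1 region chr9:32508563-32509283, WT replicate 2 was at 68.31 CPM, above 47.0 to 48.5 CPM.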

How the results depend on the processing

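No member region passed the threshold under any alternative. The 12 regions called over the whole table became 38 with DESeq2's Wald test, 1 with a replicate block, 1 to 68 when single libraries were left out (68 without WT replicate 2, 22 without OPA1KO replicate 4, 4 without OPA1KO replicate 2, and 1 without WT replicate 3 or 4 or OPA1KO replicate 1 or 3) and 490 with both WT replicate 2 and OPA1KO replicate 4 left out. The 4 windows called became 11 with DESeq2, 4 with the replicate block, 3 to 21 without single libraries (21 without WT replicate 2) and 1046 without both of those libraries. That last setting was chosen after seeing the data, because leaving out either of the 2 libraries alone raised the number of called regions. Its counts are therefore no support. It gave 1 called member window, Ets2, and turned the sign of Spi1 (log2 difference 0.057) and Ets1 (-0.017). Other windows that changed sign were all near 0: with 10 kb windows Ets1 (-0.00020), Ets2 (-0.020) and Elk3 (-0.031), and with nearest regions only Elk3 (-0.016). Leaving out single libraries gave -0.092 to 0.015 for Spi1, -0.020 to 0.035 for Spib, -0.012 to 0.036 for Ets1, -0.057 to 0.12 for Ets2 and -0.053 to 0.062 for Elk3. Etv6, Etv3 and Elf1 stayed above 0 and Fli1 below 0 in those fits. For regions, such ranges were taken only at Spi1 regions at or above 30 CPM and at the start, strongest and smallest-p regions of the other genes. Those that crossed 0 were -0.14 to 0.0073 at chr2:91070106-91070843, -0.15 to 0.024 at chr2:91096498-91096950 and -0.037 to 0.089 at the Etv6 start. Also across 0 were -0.17 to 0.029 at chr9:32508563-32509283 and -0.032 to 0.12 at the second Elf1 start. The cause of these changes was not tested. Same-numbered libraries did not deviate together (correlations -0.127, -0.011, -0.075 and -0.07), so the numbers were not taken as pairs.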

Other observations

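The gene windows whose log2 level followed that of Spi1 most closely over the 8 libraries, among 8607 windows at or above the median level that shared no region with it, were Ehbp1l1 (Pearson r = 0.994), Kcnk7 (0.992) and Map3k11 (0.990). The 3 windows are not separate cases: they hold 14 regions in all, of which 10 belong to all 3. The values describe libraries that share their depth and scaling.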
